A study of Mus musculus with 26 samples.

Results

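The collagen chain genes, whose products assemble in threes into the collagens of the extracellular matrix, were followed across a mouse osteosarcoma series. Every gene with a symbol made of Col, a number, a and a number was taken, each by the probe set that was brightest on average across the 26 arrays. A probe set is a group of short oligonucleotides on the array that is read together as 1 signal. Of 44 such genes in the RefSeq gene table, 42 had a probe set of their own on the array and 2, Col6a6 and Col28a1, were not named there. The 42 genes stand among 18193 genes with a probe set, and 36 of them passed the filter on dim signals, as did 12858 genes in all. The 6 that did not pass were Col4a3, Col4a4, Col6a5, Col9a2, Col10a1 and Col17a1.

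The series holds 3 cultures of wild-type primary osteoblasts that were differentiated in vitro and serve as control. Against them stand 15 primary osteosarcomas, 4 lines of osteosarcoma cells and 4 samples grouped here as secondary tumours. Secondary tumours 29, 64 and 94 are labelled as transplants. The source of number 66 is tumour tissue that came from a cell line, and its title calls it a cell line. It was kept with the secondary tumours. Their titles carry the code OPflR, which the labels do not spell out. The growth label of every sample says only that a mouse model was used. The wild-type genotype of the cultures comes from the series design. The sample labels give no strain or age, no alleles for tumours or lines and no origin of the lines, and nothing says that the cultures came from separate animals. The spread between the osteoblast arrays may therefore be only technical. The p-values against osteoblasts rest on a spread pooled within all groups, tumours and lines included, and not on the cultures alone. They cannot show how far cultures from separate animals would differ.

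Collagens are secreted as long triple helices. Fibril-forming chains such as Col1a1 and Col1a2 build the tensile fibrils of bone, and type II chains those of cartilage. Minor fibril-forming chains include those of types V, XI, XXIV and XXVII, of which types V and XI set fibril number and width. Fibril-associated chains decorate the surface of fibrils. Type IV chains form the sheets of basement membranes, type VI chains form beaded filaments around cells, and some collagens stay anchored in the cell membrane. Osteoblasts lay down type I collagen as the organic scaffold on which bone mineral forms, and osteosarcoma is defined by tumour cells that deposit such matrix.

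The deposited values were intensities, used here as log2 intensity with a floor at 3.64. The values were not normalized again. Array medians were 46.4 to 48.2 intensity units for osteoblasts and 44.4 to 48.2 for lines, below the 50.4 to 58.8 of primary and 54.9 to 58.1 of secondary tumours, with no overlap between cultured cells and tumours. Their part in comparisons of cultured cells with tumours was tested only through quantile normalization and 75th percentile scaling. The Gapdh 5′ to 3′ control ratio, which drops with short or degraded RNA, lay at 0.916 to 0.967 for the osteoblasts and at 1.04 to 1.08 for the lines. It spanned 0.656 to 1.03 among primary and 0.839 to 1.08 among secondary tumours. Spiked bacterial hybridisation controls parted the arrays into 3 control sets. Set A held the 3 osteoblast cultures, set B held 7 primary and the 4 secondary tumours, and set C held 8 primary tumours and the 4 cell lines. In comparisons against osteoblasts, control set and group cannot be told apart. The osteoblast cultures also carried fat cell markers: the mean of 7 such markers was 11.02 to 11.09 there and at most 7.26 on any other array. Their mean of 8 osteoblast markers was 8.57 to 8.77. That of the primary tumours was 8.44 to 10.08 apart from tumour 330, at 6.02, and that of the cell lines was 5.73 to 7.67.

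Primary tumours were first compared with osteoblasts, which asks how the collagen transcripts of a bone tumour differ from those of these cultures. A call required a limma adjusted p under 0.05 together with a difference of 2-fold or more. Of the 36 members tested, 8 were called (22.2%), against 18.4% of all genes. The 3 called higher in tumours were Col22a1, Col13a1 and Col16a1, against 6.59% of all genes, and the 5 called lower were Col14a1, Col4a5, Col2a1, Col8a1 and Col12a1, against 11.8%. The median log2 difference was 0.07 over the 36 members and -0.07 over all genes. In bulk RNA, fewer cells of a type and less RNA per cell cannot be told apart, here and in every comparison that follows.

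Col22a1 encodes a fibril-associated collagen known from the junction of muscle and tendon. Its log2 intensity was 4.93, 4.86 and 5.30 in the 3 osteoblast cultures. In the 15 primary tumours it ran from 5.24 through a median of 8.47 to 9.66. Tumour 330 alone lay within the range of the osteoblasts, and the next lowest tumour, number 94, was at 7.82. The log2 difference was 3.54 (SE 0.59, 11.6-fold, limma adjusted p = 3.61e-05), with 15 tumours against 3 cultures. Secondary tumours were at 8.96 in number 29, 10.24 in 64, 8.08 in 66 and 7.74 in 94 (log2 difference 3.72, SE 0.71, adjusted p = 0.000285). All 4 secondary tumours lay above all 3 cultures.

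Col13a1 encodes a collagen that spans the cell membrane. It was at 6.47, 6.05 and 5.79 in the osteoblast cultures and ran from 5.33 through 9.01 to 9.99 in primary tumours. Tumour 330 was again the lowest and lay below the 3 cultures, while every other primary tumour lay above them. The log2 difference was 2.74 (SE 0.57, 6.69-fold, adjusted p = 0.000436). Secondary tumours were at 8.04, 9.01, 7.995 and 9.46 in numbers 29, 64, 66 and 94, 2.53 above osteoblasts (SE 0.69, adjusted p = 0.00615).

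Col16a1, another fibril-associated chain, rose less. The osteoblast cultures were at 10.37, 10.53 and 10.41, and primary tumours ran from 10.42 through 11.91 to 12.82. Tumour 183, the lowest, lay inside the range of the cultures, and the next, tumour 330, just above it. The log2 difference was 1.30 (SE 0.38, adjusted p = 0.00745). With the primary tumours of control set C alone the difference was 0.82, under the 2-fold limit. Secondary tumours, all of set B, were at 11.66, 12.18, 12.18 and 12.69, 1.74 above osteoblasts (SE 0.46, adjusted p = 0.0047).

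**Figure D1:**
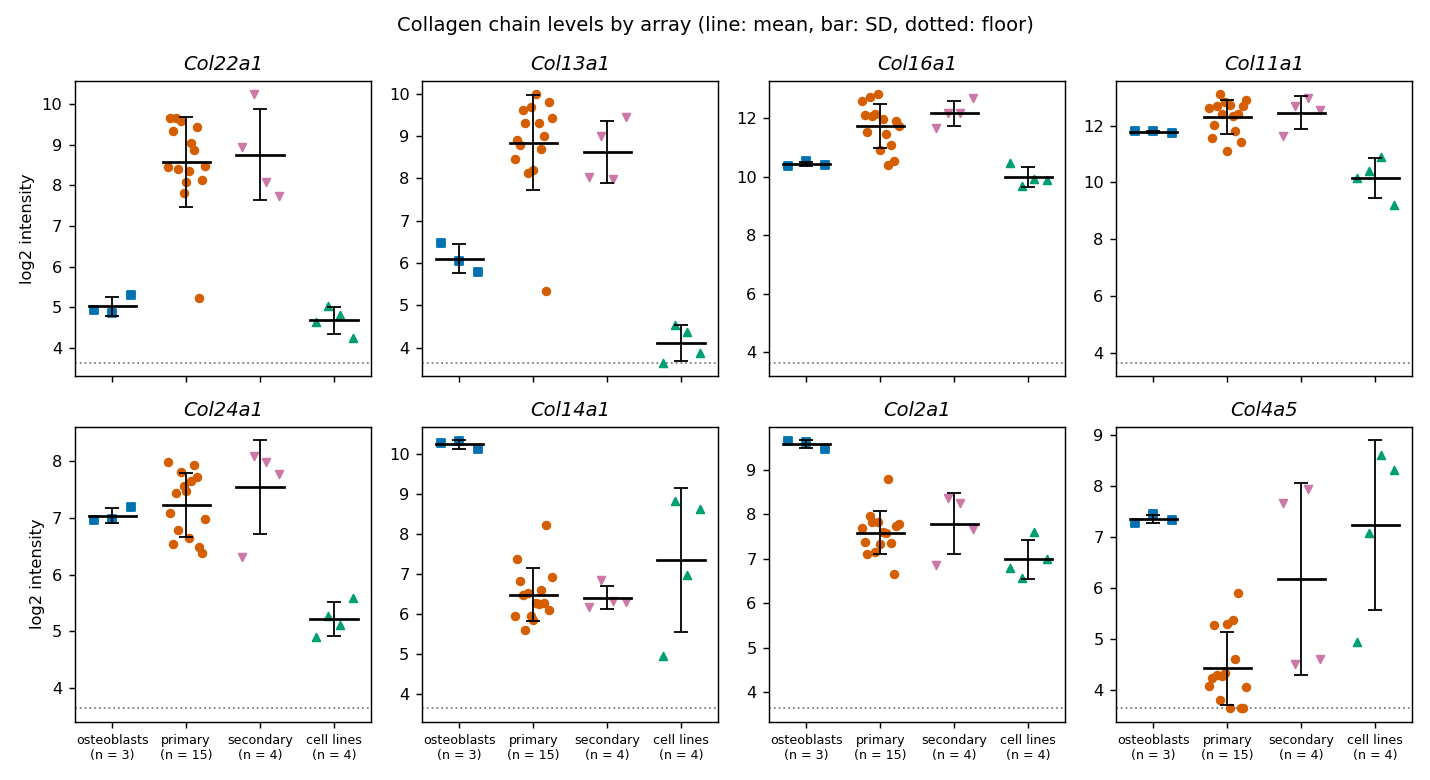
Log2 intensity of 8 collagen chain genes on every array, by group; the horizontal line is the group mean, the bar 1 SD and the dotted line the floor of 3.64. Col22a1 and Col13a1 are high in tumours of both kinds and low in osteoblasts and cell lines, with primary tumour 330 the single low primary tumour, and Col14a1 and Col2a1 are highest in osteoblasts.

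Col14a1, a fibril-associated collagen of skin, tendon and other dense tissue, showed the largest difference of any member. Osteoblasts were at 10.28, 10.34 and 10.12, and primary tumours ran from 5.60 through 6.28 to 8.24. No tumour reached the cultures, and the highest was tumour 330. The log2 difference was -3.77 (SE 0.51, 13.6-fold lower, adjusted p = 2.99e-06). In secondary tumours, at 6.19, 6.84, 6.33 and 6.29, it was -3.84 (SE 0.62, adjusted p = 4.86e-05). The mean of 11 tendon and fibroblast markers was 9.78 to 10.05 in osteoblasts and 7.92 to 9.80 in primary tumours, with 4 of the 11 lower and 1 higher in primary tumours. Its part in the difference was not tested.

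Col2a1, the chain of cartilage collagen, was at 9.65, 9.61 and 9.47 in osteoblasts and ran from 6.65 through 7.60 to 8.79 in primary tumours. No primary tumour overlapped the cultures (log2 difference -1.99, SE 0.30, adjusted p = 9.75e-06). Secondary tumours, at 6.86, 8.36, 8.25 and 7.67, were 1.79 lower on the log2 scale than osteoblasts (-1.79, SE 0.36, adjusted p = 0.000454). The mean over 12 cartilage markers was 6.96 to 7.29 in osteoblasts and 5.18 to 6.37 in primary tumours, where 4 of 9 tested were lower and none higher. In secondary tumours 5 of 9 were lower and 1, Acan, was higher. Across primary tumours Col2a1 had r = 0.047 with the cartilage marker mean (permutation test, adjusted p = 0.898). The part of these markers was not tested. Col10a1, the marker of hypertrophic cartilage, was at 4.19, 4.52 and 4.73 in osteoblasts and at the floor on 22 of 26 arrays, and was too dim to be tested.

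Col4a5, a basement membrane chain of specialised sheets such as those of the kidney filter, was at 7.28, 7.44 and 7.33 in osteoblasts. In primary tumours it ran from the floor, which 3 of 15 tumours touched, through 4.26 to 5.90. The groups did not overlap (log2 difference -2.92, SE 0.65, adjusted p = 0.000822). Col8a1, a short-chain collagen of vessel walls and the eye, was at 11.19, 11.15 and 11.04 in osteoblasts and ran from 7.56 through 9.48 to 10.89 in primary tumours. Its difference of -1.60 (SE 0.52, adjusted p = 0.0164) did not pass after quantile normalization (-1.31), with primary tumours of set C alone (-1.44) or without osteoblast culture 1 (-1.57) or 2 (-1.59). In secondary tumours, at 8.49, 8.91, 9.79 and 9.72, Col8a1 was also lower (-1.90, SE 0.63, adjusted p = 0.0219). That call was lost after quantile normalization (-1.65), with the tumour number as a random block (-1.70), without osteoblast culture 1 (-1.87), 2 (-1.89) or 3 (-1.94), and without secondary tumour 29 (-1.65). Smooth muscle and pericyte markers, a mean of 9.32 to 9.73 over 8 markers in osteoblasts, were 7.59 to 8.93 in primary and 7.39 to 7.70 in secondary tumours. In each tumour group 4 of the 8 were called lower than in osteoblasts and 1, Rgs5, was called higher. The part of these markers in the Col8a1 difference was not tested.

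Col12a1, a fibril-associated chain of periosteum, ligament and tendon, was at 11.67, 11.61 and 11.61 in osteoblasts and ran from 8.60 through 10.11 to 12.13 in primary tumours. Tumour 94 lay above the cultures. The difference of -1.57 (SE 0.54, adjusted p = 0.0208) was lost without any of the 3 cultures in turn (-1.55, -1.58 and -1.58) and was -0.89, not called, against the primary tumours of set B alone. Primary tumours of set B had a mean of 10.74 and those of set C a mean of 9.47. In secondary tumours Col12a1 was at 10.49, 10.16, 11.17 and 12.32 and was not called against osteoblasts.

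For secondary tumours against osteoblasts, 6 of 36 members were called (16.7%), against 18.4% of all genes: Col22a1, Col13a1 and Col16a1 higher and Col14a1, Col8a1 and Col2a1 lower. The background was 7.71% of genes higher and 10.7% lower. Both tumour groups were set against the same 3 cultures, so these calls are not independent of those for primary tumours.

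The brightest probe sets of the type I and type III chains lay near the top of the scale. The brightest signal on an array was 13.94 to 14.41. On many tumour arrays that signal was itself 1 of these chains, such as Col1a2 at 14.19 in primary tumour 119. In primary tumour 29 it was Col3a1, at 14.23. These maxima therefore cannot show whether the scale has a ceiling there. Col1a1, the major chain of bone collagen, was at 13.84, 13.95 and 13.84 in osteoblasts and at 13.88 to 14.11 in primary tumours (log2 difference 0.094, SE 0.093). Col1a2, its partner in type I collagen, differed by 0.18 (SE 0.097), and Col3a1, the chain of the thin fibrils of soft tissue, by 0.29 (SE 0.12). None of the 3 was called.

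Less bright probe sets of the same genes showed larger differences. The dimmest of the 3 Col1a2 probe sets rose from a mean of 9.20 in osteoblasts to 11.25 in primary tumours (2.05, SE 0.25, adjusted p = 4.32e-07 over all kept probe sets). Under the alternatives run, the mean of its probe sets among them, the Col1a2 difference was at most 0.92 and not called. A second Col3a1 probe set rose from 10.87 to 12.17 (1.30, SE 0.50, adjusted p = 0.0346). Both other Col5a1 probe sets rose, by 1.56 (SE 0.24) and 1.40 (SE 0.19), where the brightest differed by 0.77 (SE 0.19, adjusted p = 0.00165), under the 2-fold limit. Col5a1 and Col5a2 encode chains of type V collagen, which lies inside type I fibrils. Col5a2 differed by 0.52 (SE 0.18, adjusted p = 0.0217), and its other probe set by 0.72 (SE 0.27). The dimmer Col1a1 probe set differed by 0.78 (SE 0.27, adjusted p = 0.0209). All of these differences had the sign of the brightest probe set.

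**Figure D2:**
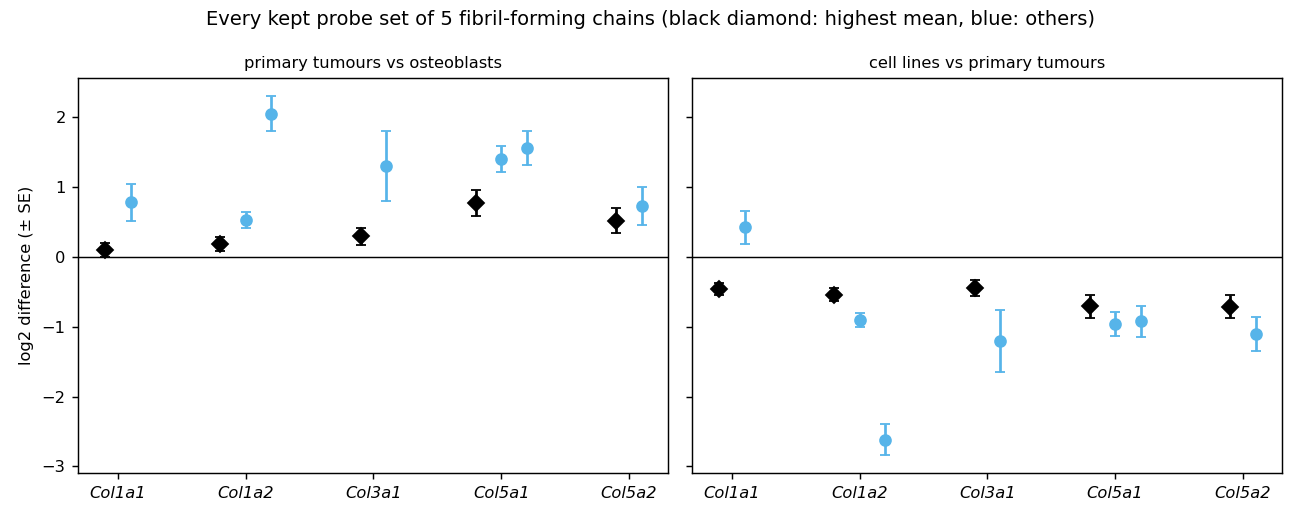
Log2 difference ± SE of every kept probe set of 5 fibril-forming chains, for primary tumours against osteoblasts (left) and cell lines against primary tumours (right); black diamonds are the probe sets with the highest mean. The black diamonds lie nearest 0 in the left panel, and the dimmer Col1a1 probe set has the opposite sign of the brightest in the right panel.

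The choice of probe set did not turn any called member: its other kept probe sets had the same sign in 7 of 7 cases for primary tumours against osteoblasts, and in all 4, 5, 6 and 5 cases for cell lines against osteoblasts, secondary tumours against osteoblasts, and cell lines against primary and against secondary tumours. Over the 61 kept collagen probe sets, 9 were higher (14.8%) and 10 lower (16.4%) in primary tumours than in osteoblasts, against 11% and 11.1% of the 27308 probe sets kept in all.

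By class, 1 of 11 fibril-forming chains tested was called in primary tumours against osteoblasts, 4 of 8 fibril-associated chains, 1 of 4 basement membrane chains, 1 of 2 short chains, 1 of 3 transmembrane chains, 0 of 5 beaded filament chains, 0 of 2 multiplexins and 0 of 1 anchoring fibril chain, against 18.4% of all genes. In the beaded filament chains of type VI the differences were small beside their errors: Col6a1 by 0.046 (SE 0.34), Col6a2 by -0.046 (SE 0.42) and Col6a3 by 0.41 (SE 0.28). The main basement membrane chains Col4a1 and Col4a2 differed by -0.12 (SE 0.42) and -0.62 (SE 0.39), while 9 of 12 endothelial markers were higher in the tumours and none lower. Col15a1, a multiplexin found where basement membrane meets matrix, was at 9.41 to 9.61 in osteoblasts and 7.59 to 10.997 in primary tumours (-0.14, SE 0.61). Col11a1, a minor fibril-forming chain, differed by 0.53 (SE 0.35), or 0.013 with the mean of its probe sets.

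Cell lines were then compared with primary tumours, which asks what the tumour cells express in culture. Of the 36 members 10 were called (27.8%), against 11.7% of all genes. Only Col4a5 was called higher, against 4.7% of all genes, and 9 were called lower, against 7.04%. The median log2 difference was -0.56 over the members and -0.03 over all genes. All 10 macrophage markers and 8 of 12 endothelial markers were lower in the lines too, and 6 of 7 osteoblast markers tested. Macrophage markers averaged 4.99 to 5.26 on the arrays of the lines, against 8.68 to 10.92 for primary tumours. The part of these cells in the collagen differences was not tested.

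The largest differences were those of Col13a1 and Col22a1, also the largest called higher in tumours than in osteoblasts. Col13a1 was at the floor in cell line 176 and at 4.54, 4.37 and 3.86 in lines 179, 182 and 213. All 4 lines lay below all 15 primary tumours (log2 difference -4.74, SE 0.51, 26.8-fold lower, adjusted p = 2.49e-07). Col22a1 was at 4.63, 5.05, 4.81 and 4.24 in the same lines, also below every primary tumour, tumour 330 included (-3.89, SE 0.52, 14.8-fold lower, adjusted p = 5.67e-06). Col16a1, at 10.47, 9.67, 9.94 and 9.90, was 1.74 lower on the log2 scale (-1.74, SE 0.34, adjusted p = 0.000309), with line 176 inside the range of the tumours.

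Fibril-forming chains of the minor types were lower as well. Col11a1 was at 10.15, 10.42, 10.89 and 9.21 in lines 176, 179, 182 and 213, below all primary tumours, which ran from 11.10 through 12.41 to 13.10 (-2.15, SE 0.31, adjusted p = 1.5e-05). Col24a1, a chain of developing bone, was at 4.89, 5.28, 5.10 and 5.59, below a primary range of 6.39 through 7.44 to 7.98 (-2.02, SE 0.30, adjusted p = 1.77e-05). Neither gene's groups overlapped. Col11a2, the second type XI chain, was at 5.41, 5.33, 5.78 and 5.39 against 5.08 through 8.28 to 9.54 (-2.47, SE 0.71, adjusted p = 0.00827), with tumours 330 and 94 in the range of the lines or below it. Col27a1, a fibril-forming chain of cartilage and developing bone, was at 7.62, 6.25, 6.70 and 6.998 against 7.32 through 8.41 to 9.39 (-1.55, SE 0.31, adjusted p = 0.000371), with line 176 inside the range of the tumours. The Col27a1 call was lost with the tumour number as a fixed block (-0.95). Such a block uses only the 3 lines that share a number with a primary tumour, and not line 213.

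Col4a5 went the other way. It was at 4.94 in line 176 and at 7.07, 8.61 and 8.31 in lines 179, 182 and 213, so 3 of the 4 lines lay above every primary tumour (2.81, SE 0.58, adjusted p = 0.000556). With the tumour number as a fixed block, and so over 3 pairs, it differed by 2.11 and was not called (limma adjusted p = 0.124). Col4a1 was lower by -1.10 (SE 0.38, adjusted p = 0.0246), but this rested on line 176, at 8.39 where the other lines were at 11.04, 11.14 and 10.98. Without that line the difference was -0.43 and not called. The call was also lost when its probe sets were averaged (-0.77), with control set as a covariate or set C alone (-0.89 both times), and with weights per array (-0.72). It was lost too with the tumour number as a random (-0.87) or fixed block (-0.37). Col7a1, the chain of the anchoring fibrils of skin, was 1.19 lower (-1.19, SE 0.41, adjusted p = 0.0243). Its call was lost with the tumour number as a fixed block. Col7a1 was outside the rule for named genes and was added after its value was seen.

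**Figure D3:**
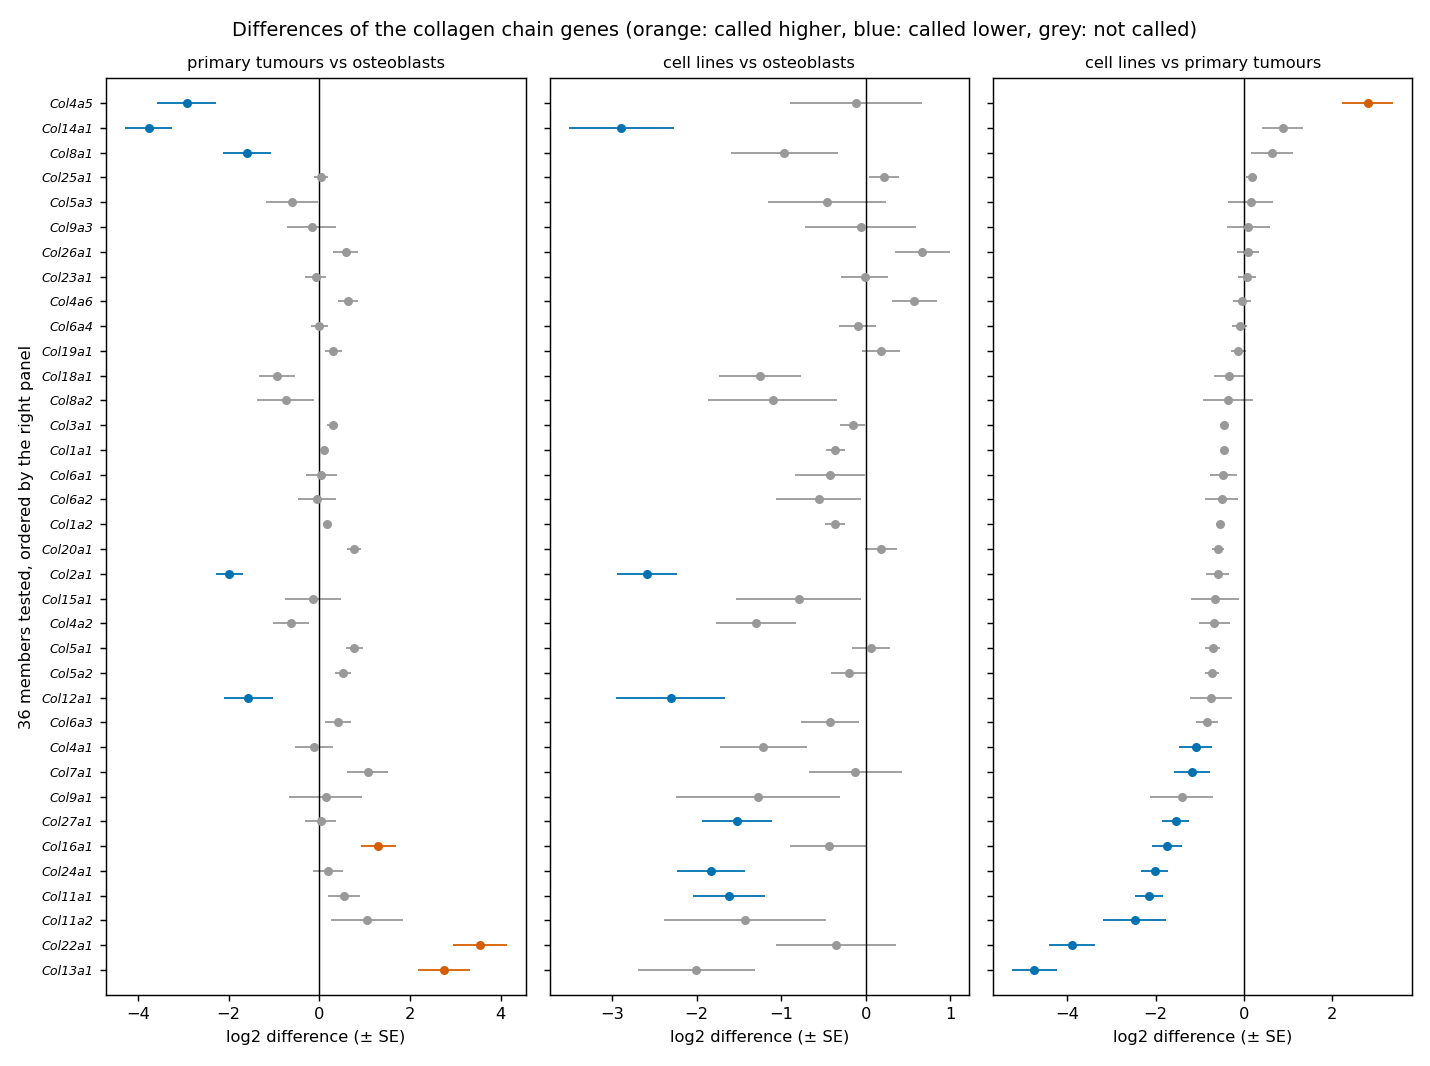
Log2 difference ± SE of the 36 collagen chain genes tested in 3 comparisons, ordered by the right panel; orange is called higher, blue called lower and grey not called. In cell lines against primary tumours 28 of 36 differences lie below 0 and 9 are called lower, with Col13a1 and Col22a1 at the bottom.

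Within control set C, which holds all 4 lines and 8 primary tumours, 9 of 36 members were called, 1 higher against 4.06% of all genes in that fit and 8 lower against 5.09%. They were Col4a5 higher (2.71, SE 0.65) and Col13a1 (-4.62, SE 0.69), Col22a1 (-3.52, SE 0.60), Col11a2 (-2.65, SE 0.66), Col11a1 (-2.01, SE 0.38), Col24a1 (-1.95, SE 0.30), Col9a1 (-1.34, SE 0.41), Col16a1 (-1.26, SE 0.31) and Col27a1 (-1.20, SE 0.32) lower. Col9a1, a fibril-associated chain of cartilage, was not called over all arrays and is named after its value was seen. Col7a1 (-0.99) and Col4a1 (-0.89) were not called within the set.

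Type I, III and V chains were also lower in lines than in primary tumours, at less than 2-fold by their brightest probe sets. The differences were -0.46 for Col1a1 (SE 0.082, adjusted p = 0.00016), -0.54 for Col1a2 (SE 0.086), -0.45 for Col3a1 (SE 0.11), -0.71 for Col5a1 (SE 0.16) and -0.71 for Col5a2 (SE 0.16), each with an adjusted p below 0.05. The dimmest Col1a2 probe set was 2.62 lower (-2.62, SE 0.22, adjusted p = 3.71e-09) and the dimmer Col3a1 probe set 1.20 lower (-1.20, SE 0.44, adjusted p = 0.0327). With the mean of its kept probe sets Col1a2 differed by -1.35 (limma adjusted p = 3.15e-09). The dimmer Col1a1 probe set pointed the other way, at 0.42 (SE 0.24, adjusted p = 0.164), so the direction for Col1a1 depends on the probe set. Col6a3 was lower by -0.84 (SE 0.25, adjusted p = 0.0112). Col6a1, Col6a2, Col2a1 and Col4a2 differed by -0.47, -0.51, -0.60 and -0.67 and Col15a1 by -0.65, none of them past the adjusted p.

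Against secondary tumours, 9 of 36 members were called in the lines (25%), against 13.1% of all genes, all of them lower, against 8.39% of all genes. None was higher, against 4.75%. All 10 macrophage markers, 8 of 12 endothelial and 5 of 7 osteoblast markers tested were lower in the lines too, and their part was not tested. The differences were -4.53 for Col13a1 (SE 0.64), -4.07 for Col22a1 (SE 0.66), -3.24 for Col11a2 (SE 0.89), -2.33 for Col24a1 (SE 0.38), -2.30 for Col11a1 (SE 0.39), -2.18 for Col16a1 (SE 0.42), -1.71 for Col12a1 (SE 0.60), -1.60 for Col27a1 (SE 0.38) and -1.47 for Col7a1 (SE 0.51). Lines and secondary tumours lie in different control sets, which primary tumours bridge. With control set as a covariate Col13a1, Col22a1, Col24a1 and Col11a1 kept their calls, and Col11a2 (-3.61), Col16a1 (-1.15), Col27a1 (-0.86), Col12a1 (-0.43) and Col7a1 lost theirs. With the tumour number as a random block Col12a1 differed by -1.11, not called, and as a fixed block by 0.28. No line shares a number with a secondary tumour, so the fixed block compares only their differences from same-number primary tumours. The Col12a1 call was also lost with no filter on dim probe sets. It was lost too without line 179 (-1.40) or 213 (-1.65) or secondary tumour 66 (-1.67) or 94 (-1.28).

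Against osteoblasts, 6 of 36 members were called in the lines (16.7%), against 8.16% of all genes, and all 6 were lower, against 6.58%. None was higher, against 1.58%. All 7 fat cell markers, 6 of 9 cartilage markers and 4 of 11 tendon and fibroblast markers were lower in the lines as well and none higher, and their part was not tested. Col14a1 was at 4.96, 8.84, 6.99 and 8.64 in lines 176, 179, 182 and 213, all below the cultures (-2.89, SE 0.62, adjusted p = 0.00212). Col2a1 was at 6.80, 6.57, 7.60 and 6.99 (-2.59, SE 0.36, adjusted p = 1.58e-05), again below every culture. Col12a1, at 9.44, 8.40, 10.30 and 9.15, differed by -2.31 (SE 0.65, adjusted p = 0.0159), a call lost without osteoblast culture 1 (-2.29) or 2 (-2.31) or line 179 (-1.998). The other called chains were Col24a1 (-1.83, SE 0.41), Col11a1 (-1.61, SE 0.43) and Col27a1 (-1.52, SE 0.41), the last lost without osteoblast culture 1 (-1.498) or line 179 (-1.31). Col13a1 differed by -2.0005 (SE 0.69, adjusted p = 0.0507) and Col22a1 by -0.35 (SE 0.71), neither of them called.

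The promoters of the chains lower in lines than in both kinds of tumour were read from the RefSeq promoter table (GRCm38.p6), and 7 of these 8 genes were in it. The 3 shown had the largest differences from primary tumours among the genes with an entry whose lines overlapped neither tumour group. Each line gives the 250 bases before the annotated start, 5′ to 3′ on the gene's strand, with capitals for motif matches on either strand.
Col13a1, chr10:61979109-61979358, minus strand: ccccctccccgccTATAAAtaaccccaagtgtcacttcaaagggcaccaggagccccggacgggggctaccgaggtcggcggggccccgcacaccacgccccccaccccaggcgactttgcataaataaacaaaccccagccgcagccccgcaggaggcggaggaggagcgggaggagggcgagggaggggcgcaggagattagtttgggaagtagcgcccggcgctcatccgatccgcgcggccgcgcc
Col11a1, chr3:114030290-114030539, plus strand: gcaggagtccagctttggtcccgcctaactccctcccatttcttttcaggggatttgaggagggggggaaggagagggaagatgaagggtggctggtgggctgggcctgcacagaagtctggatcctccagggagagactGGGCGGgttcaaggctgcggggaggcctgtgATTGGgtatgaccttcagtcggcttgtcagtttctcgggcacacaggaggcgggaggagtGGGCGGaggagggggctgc
Col24a1, chr3:145292222-145292471, plus strand: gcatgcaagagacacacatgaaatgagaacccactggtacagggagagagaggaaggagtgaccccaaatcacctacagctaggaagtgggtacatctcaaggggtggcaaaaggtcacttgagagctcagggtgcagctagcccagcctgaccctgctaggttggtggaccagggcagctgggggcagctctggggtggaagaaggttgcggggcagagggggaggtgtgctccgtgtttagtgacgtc

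The motifs were searched on both strands. They were the CCAAT box, the GC box GGGCGG, the TATA box as TATAAA, and the letters TGTGGT, a core that Runt factors bind. CCAAT occurred in 3 of the 7 windows and in 33.8% of 32851 windows of the same length, and GGGCGG in 5 of 7 and in 32.7%. TATAAA occurred in 2 of 7 and in 12.4%, and TGTGGT in 0 of 7 and in 14.0%. The Col13a1 window holds TATAAA 237 bases before the start, the Col11a1 window holds GGGCGG at 110 and 19 bases and CCAAT, on the other strand, at 79 bases before it, and the Col24a1 window holds none of the 4. A match is a stretch of letters, not a measured binding site. The windows were 68.8%, 62.4% and 58.0% G and C, where the median over all entries was 52.4%.

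Secondary tumours were compared with primary tumours, 3 of the 4 labelled as transplants. limma called 0 of 36 members, against 0.00778% of all genes, and at an unadjusted p under 0.05 it was 1 of 36 members and 9.47% of all genes. That member was Col4a5, at 7.65, 4.51, 7.94 and 4.60 in secondary tumours 29, 64, 66 and 94 (1.75, SE 0.58, adjusted p = 0.442). Numbers 29 and 66 lay above every primary tumour and the other 2 inside their range. Col22a1 differed by 0.18 (95% normal interval -0.84 to 1.21) and Col13a1 by -0.22 (-1.21 to 0.78). Within control set B limma called 0 members and 0.0233% of all genes, and at an unadjusted p under 0.05 it was 1 member and 5.85% of all genes.

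Each secondary tumour shares its number with a primary tumour, and across all genes each resembled that primary tumour more than the other primary tumours. Against its own primary, 6 of the 36 members tested had 1 sign in all 4 pairs (16.7%), as did 20.6% of all genes. Col4a5, Col11a2 and Col26a1 were the 3 higher and Col13a1, Col11a1 and Col1a1 the 3 lower. Col13a1 was lower in all 4 secondary tumours, with differences of -1.31 to -0.22 (mean -0.72 ± 0.45, SD, n = 4 pairs). Col11a2 was higher in 4 of 4 pairs, by 0.04 to 2.04 (mean 1.08 ± 0.82). Col4a5 was higher in 4 of 4, by 2.39 in number 29 and 4.14 in number 66 but 0.22 and 0.27 in numbers 64 and 94. The means were 0.49 ± 0.27 for Col26a1, -0.20 ± 0.17 for Col11a1 and -0.087 ± 0.075 for Col1a1 (SD, n = 4 pairs). With the tumour number as a fixed block limma called 0 members and 0.0233% of all genes, and at an unadjusted p under 0.05 it was 3 members and 7.26% of all genes. In 2 genes a high level in 1 primary tumour recurred in its secondary. Col9a1 was 9.50 in primary tumour 64 and 10.79 in its secondary, where the other primary tumours were at 5.07 to 8.09. Col7a1 was 10.97 and 10.77 in primary and secondary tumour 94, where the other primary tumours were at 7.80 to 9.50. These 2 genes were singled out after their values were seen. Other levels did not recur, as with Col4a5 in numbers 29 and 66.

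Among the 6 members that did not pass the filter, Col17a1, a transmembrane collagen of the skin's hemidesmosomes, was at 7.67 and 7.90 in primary tumours 183 and 188. The other primary tumours were at most at 5.70, and no osteoblast culture, line or secondary tumour passed 4.11. Col9a2 was at the floor on all 26 arrays.

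Partner chains of 1 trimer or mixed fibril were set against each other across the 15 primary tumours, in 12 of 15 listed pairs whose genes were both tested. Col6a1 and Col6a2, the short chains of type VI collagen, went together most closely (Pearson r = 0.98, Spearman rho = 0.96, permutation p = 1e-05, the smallest that 100000 resamples can give, adjusted p = 6e-05). The relation was 0.97 without the 2 tumours farthest from the median and 0.97 in each control set, with 7 tumours in B and 8 in C. Col6a3, the long chain of the same trimer, did not follow Col6a1 (r = 0.16, rho = 0.20, adjusted p = 0.676), and ran from 10.93 to 13.13.

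Col4a1 and Col4a2, which form the main basement membrane trimer, also went together (r = 0.90, rho = 0.84, p = 1e-05, adjusted p = 6e-05, 0.84 without the 2 farthest tumours). It was 0.96 in set C and 0.71 in set B, where it did not pass (adjusted p = 0.234, permutation test over 7 tumours). The genes lie head to head on chromosome 8, and their promoter windows share 78 bases at chr8:11312777-11312854 (GRCm38.p6), read from opposite strands. Cell line 176 was low in both, at 8.39 and 7.78, and so lay apart from the other lines in the pair as well.

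Col5a1 and Col5a2 were the third pair to pass (r = 0.64, rho = 0.73, permutation p = 0.0104, adjusted p = 0.0418, 0.61 without the 2 farthest tumours). Within the sets r was 0.77 and 0.44, and over all 15 tumours it was 0.50 after quantile normalization and 0.58 after 75th percentile scaling, neither past the adjusted p. Primary tumours of set B were higher than those of set C in both chains, with means of 12.95 and 12.64 for Col5a1 and 13.74 and 13.27 for Col5a2. Col1a1 and Col1a2, both near the top of the scale, showed r = 0.082 (rho = 0.00, adjusted p = 0.837), over a spread of 0.057 and 0.074 (SD), and r = 0.66 (adjusted p = 0.0314) after 75th percentile scaling. Col1a1 and Col3a1 had r = -0.60 (adjusted p = 0.0967), which became 0.055 without tumours 179 and 183 and was 0.68 in set B and -0.65 in set C. It passed after quantile normalization (r = -0.76, adjusted p = 0.027). Col11a1 and Col11a2 had r = 0.039 (adjusted p = 0.892).

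**Figure D4:**
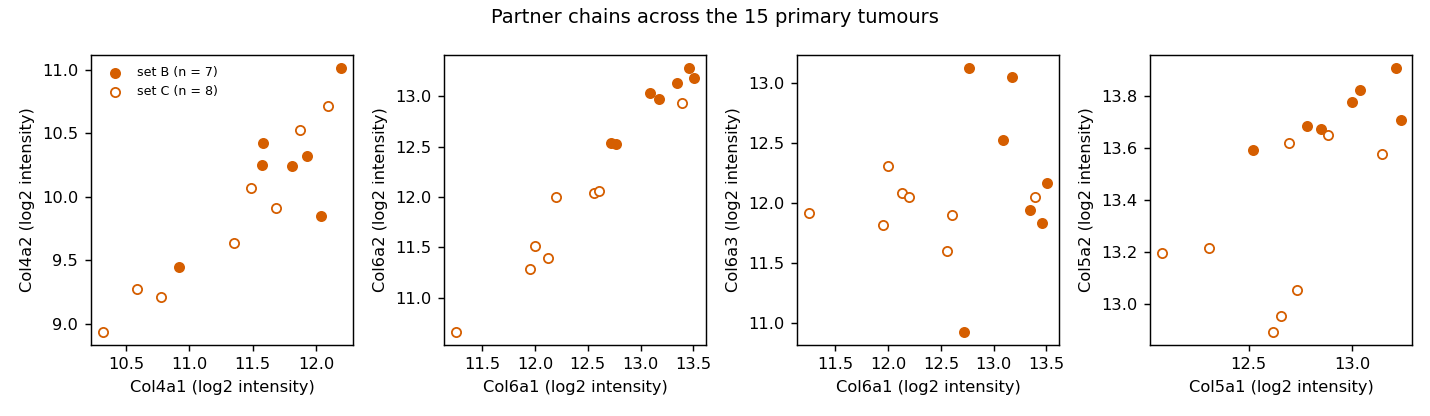
Log2 intensity of 4 pairs of partner chains in the 15 primary tumours, with filled points for control set B and open points for set C. Col6a1 rises with Col6a2 in both sets and Col4a1 with Col4a2 over the 15 tumours, a relation that did not pass within set B, while Col6a3 shows no order with Col6a1.

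The levels of the 8 members called between primary tumours and osteoblasts were set against the mean of each of 8 marker lists across the 15 primary tumours, 64 relations chosen after the data were seen. Col22a1 against osteoblast markers was the single relation to pass (r = 0.89, permutation p = 0.00067, adjusted p = 0.0429). Its rho was 0.71 with an adjusted p of 0.19, and 0 of the 64 passed by rank. It was 0.79 without tumours 183 and 330, 0.60 without tumour 330 alone, 0.88 in set B and 0.91 in set C. Col13a1 had r = 0.73 with the same markers (adjusted p = 0.384), which was -0.12 without tumour 330.

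Tumour 330 stood apart in its osteoblast markers, at a mean of 6.02, and in several collagens. It was the lowest primary tumour in Col22a1 (5.24), Col13a1 (5.33), Col11a2 (5.08) and Col2a1 (6.65), and the highest in Col14a1 (8.24). Its means of smooth muscle and of tendon and fibroblast markers, 8.93 and 9.80, were the highest of the primary tumours. Its macrophage marker mean of 9.97 lay within the range of the other tumours. None of the calls for Col22a1, Col13a1, Col14a1, Col2a1 or Col11a2 was lost without it.

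Skeletal muscle markers varied widely in primary tumours, with a mean over 12 markers of 4.71 to 10.88, and in cell lines, at 4.82 to 8.64. They were 4.60 to 4.94 in secondary tumours, close to the 4.53 to 4.70 of osteoblasts, with Tnnt3 at the floor in all 4 secondary tumours. Col22a1 was 7.74 to 10.24 in those secondary tumours. Of 11 muscle markers tested, 10 were higher in primary tumours than in osteoblasts and none in secondary tumours. Their part in the Col22a1 difference of primary tumours was not tested. Across primary tumours its r with muscle markers was 0.44 (rho = 0.28, permutation p = 0.097, adjusted p = 0.39).

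**Figure D5:**
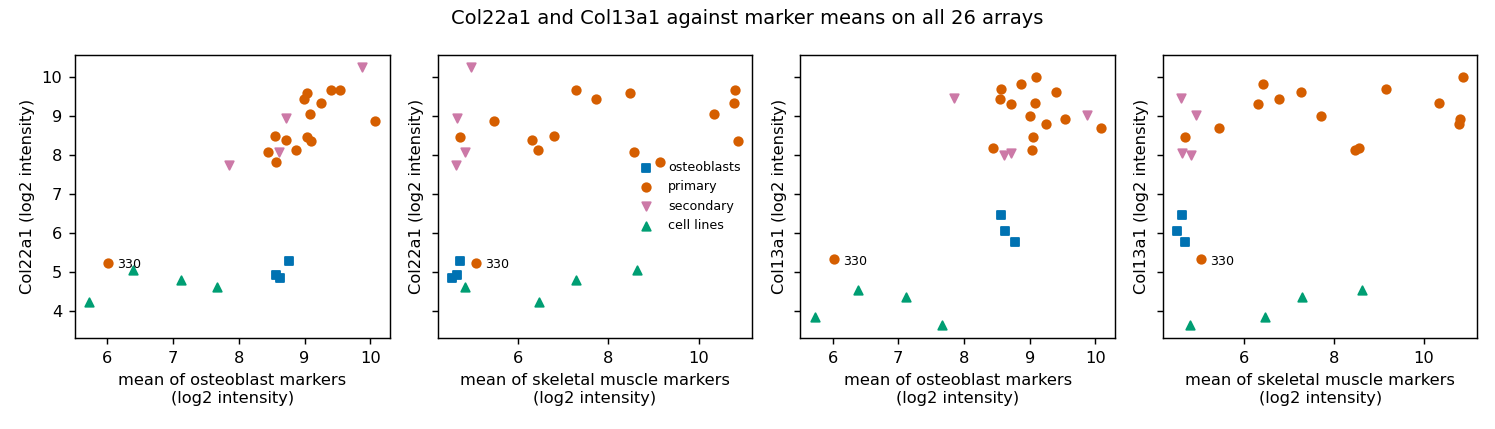
Log2 intensity of Col22a1 (left pair of panels) and Col13a1 (right pair) on all 26 arrays against the mean of 8 osteoblast or 12 skeletal muscle markers, by group, with primary tumour 330 labelled. Secondary tumours combine a muscle mean of 4.60 to 4.94 with Col22a1 of 7.74 to 10.24, and tumour 330 has an osteoblast marker mean of 6.02, inside the 5.73 to 7.67 of the lines, with Col22a1 at 5.24 and Col13a1 at 5.33, above all 4 lines.

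The enzymes, carriers and receptors of the collagen pathway were read from a list of 49 genes, of which 38 were tested. In primary tumours against osteoblasts 3 were higher and 10 lower, against 6.59% and 11.8% of all genes. Pcolce2, an enhancer of procollagen cleavage, was 4.40 lower (-4.40, SE 0.56, adjusted p = 1.11e-06). P4ha3, a prolyl hydroxylase subunit that stabilises the helix, was 3.94 lower (-3.94, SE 0.62), the collagen receptor integrin gene Itga1 3.23 lower (-3.23, SE 0.36) and Loxl1, a cross-linking oxidase, 2.07 lower (-2.07, SE 0.77, adjusted p = 0.0332). By role, 3 of 4 cross-linking genes and 5 of 15 hydroxylation and glycosylation genes were lower, beside the 11.8%. The count was 1 of 4 for propeptide cleavage, 1 of 8 for receptors and 0 of 7 for folding and export. The 3 higher were 2 receptors and 1 hydroxylation and glycosylation gene. In secondary tumours 3 were higher and 11 lower, against 7.71% and 10.7% of all genes, among them Pcolce2 (-4.10, SE 0.68), P4ha3 (-3.36, SE 0.75) and Itga1 (-2.54, SE 0.44). Colgalt2, which adds galactose to collagen, was at the floor in all 3 osteoblast cultures and 6.34 in secondary tumours, at least 6.49-fold higher (adjusted p = 0.00121).

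In cell lines, 0 of 38 pathway genes were higher and 9 lower than in osteoblasts, against 1.58% and 6.58% of all genes. The lower ones were led by Pcolce2 (-2.50, SE 0.68), P4ha3 (-2.39, SE 0.75), Itga1 (-2.14, SE 0.44) and Tmem38b, an ion channel that collagen-making cells need for export (-1.59, SE 0.47). Against primary tumours 3 were higher and 6 lower, with 4.7% and 7.04% of all genes. Itga10, a collagen receptor of cartilage and bone, was 3.55 lower (-3.55, SE 0.50, adjusted p = 8.63e-06) and Colgalt2 1.95 lower (-1.95, SE 0.44), while Pcolce2 (1.90, SE 0.50) and P4ha3 (1.55, SE 0.55) were higher. Against secondary tumours 0 were higher and 5 lower, with 4.75% and 8.39% of all genes. Itga10 (-3.51, SE 0.62), Colgalt2 (-2.68, SE 0.55), the collagen receptor kinase Ddr1 (-1.36, SE 0.24) and the inhibitory collagen receptor of leukocytes Lair1 (-1.06, SE 0.16) came first. In secondary against primary tumours limma called 0 of 38, against 0.00778% of all genes, and at an unadjusted p under 0.05 it was 6 of 38, against 9.47%.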

How the data were processed

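Each of the 26 arrays was a 1-colour oligonucleotide array of 45101 probe sets. The deposited values were linear intensities, 0.497 to 21734 over all arrays, and how the authors summarised and scaled them is not given in the sources used here. Intensities were floored at the 20th percentile (12.5) and taken to log2, without normalizing again. Dim probe sets, above the overall median of 52.6 on fewer than 3 arrays, were left out. A gene was read by its probe set with the highest mean, chosen before this filter. Symbols came from the platform annotation, updated through RefSeq gene IDs. All 26 arrays in 4 groups entered limma 3.58.1 (R 4.3.3), with Benjamini-Hochberg adjustment over 12858 genes. A call needed an adjusted p below 0.05 and a log2 difference of at least 1. Partner and marker correlations used permutation tests in Python 3.11.15 (numpy 2.4.6, scipy 1.17.1, pandas 2.3.3). The scripts were tested on simulated data, and the number of arrays limits the precision.

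The members and lists were chosen with earlier results of these data known. The rule for named genes took in each comparison the called members with the largest absolute differences, at most 8, and always Col1a1, Col1a2, Col2a1, Col3a1, Col4a1, Col4a2, Col5a1, Col5a2, Col6a1, Col6a2, Col6a3, Col10a1, Col11a1 and Col15a1. It took at most 4 called pathway genes a comparison. Members named outside it were chosen after their values were seen. Alternatives were other floors, filters, normalizations and probe set choices, array weights, control set, tumour number as a block, and leaving out each array. Leaving out each primary tumour and the marker correlations were added after seeing the data.

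The titles give secondary and primary tumours shared numbers. Over all genes each secondary tumour correlated with its own primary tumour, as deviations from the group mean, at r = 0.45, 0.30, 0.22 and 0.64 for numbers 29, 64, 66 and 94, the highest of 15 each time, so these numbers were taken as pairs.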

Additional observations from a re-analysis of the deposited data

Results flagged for a closer look

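In groups of 4 arrays the highest or lowest value was compared with the rest, and 3 of 48 groups of named collagens held an array whose gap to its nearest neighbour, as a share of the group's range, exceeded Dixon's 95% critical value. Chance gives about 1 in 20. Cell line 176 was low in Col4a1 (8.3882, others 10.98 to 11.14) and in Col4a2 (7.7765, others 9.72 to 9.90), the basement membrane partners. Secondary tumour 66 was low in Col1a1 (13.7137, others 13.92 to 13.96), by a probe set near the top of the scale.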

How the results depend on the processing

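The 37 called differences of collagens named by the rule leave out those of Col7a1. They were run under 1100 alternatives, many of which left out 1 array. The call was kept in 1058, lost in 41 and reversed in 1. That 1 was Col12a1 in cell lines against secondary tumours, at 0.28 (limma adjusted p = 0.653) with the tumour number as a fixed replicate block. No line shares a number with a secondary tumour, so this value is not a direct difference of their levels. It sets lines minus same-number primary tumours (mean 0.41, n = 3 pairs) against secondary minus same-number primary tumours (mean 0.13, n = 4 pairs). With that block 6 members were called in cell lines against primary tumours, a difference that then rests on 3 same-number pairs. Col27a1, Col4a1, Col4a5 and Col7a1 lost their calls there. As deviations from the group mean, cell lines and primary tumours of the same number correlated at r = 0.036, 0.083 and 0.038. The labels give no origin of the lines, and this correlation cannot settle it. In cell lines against secondary tumours 14 members were called with the mean of a gene's probe sets and 4 with control set as a covariate. In secondary against primary tumours 1, Col12a1, was called against primary tumours of set C alone. Within control set B 1 partner pair passed. The cause was not tested. Leaving out 1 array at a time gave 6 to 9 calls for primary tumours, 4 to 7 for cell lines and 5 to 8 for secondary tumours against osteoblasts, 9 to 11 for cell lines and 0 to 0 for secondary tumours against primary tumours, and 7 to 13 for cell lines against secondary tumours. Among 71 uncalled differences, 24 of 2175 alternatives gained a call. The median of all genes for cell lines against osteoblasts moved from -0.10 to 0.062 after quantile normalization and 0.073 after 75th percentile scaling. Signals near the floor or the top of the scale limit what a difference can show.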

Other observations

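Some collagens were high in single tumours, as seen after the values were examined. Col26a1, a beaded filament relative, was at 8.30 in primary tumour 330 and at 5.79 to 7.13 in the other primary tumours. Col9a3, a fibril-associated chain of cartilage, was at 7.23 in primary tumour 66 and 6.82 in primary tumour 64, and at 6.53 in secondary tumour 66. Col9a1, a chain of the same collagen, was at 7.92 and 8.09 in primary tumours 12 and 188.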
